A study of Bos taurus with 60 samples.

Results

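RET, NGFR, EFNA1 and SPRY4 were followed in the bovine mammary gland from late lactation through the dry period. These are 4 of the 25223 loci counted, found by pairing each symbol with a locus through the supplementary tables of the study. RET is locus XLOC_015739, NGFR is XLOC_009904, EFNA1 is XLOC_017597 and SPRY4 is XLOC_022353. Each of them passed the filter on low counts (at least 1 CPM, the count scaled to the size of its library, in at least 6 samples), as did 14714 loci in all. The genes were chosen by their measured changes over time, SPRY4 for D3 vs. D-3 and the other 3 genes for D7 vs. D3. Those comparisons, and others that reuse the same days, are therefore given for these genes as a description without a test. The EFNA1 locus joins EFNA1 with SLC50A1, a sugar transporter gene, and its reads cannot be divided between the 2 genes.

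The samples were biopsies of 12 multiparous Holstein cows, with visible fat trimmed and no sorting of cells. From dry-off on, 6 cows were cooled (CL) with shade, fans and soakers and 6 were heat-stressed (HT) with shade only. Each cow was biopsied on 5 days counted from dry-off. D-3 was late lactation and came before the treatments, D3 and D7 were active involution, D14 was the steady state and D25 was redevelopment. The 60 libraries held 20525083 to 26183990 counts each. All levels below are CPM scaled by edgeR's TMM factors, which correct for a few genes taking a large part of a library. Levels are compared within a gene and not between genes, since gene lengths were not used.

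RET is a receptor tyrosine kinase that binds ligands of the GDNF family, neurturin (NRTN) among them, through GFRA co-receptors. NGFR, also called the p75 neurotrophin receptor, binds the neurotrophins and works with Trk receptors and sortilin, and in the breast it is known as a marker of basal cells. Ephrin A1, the product of EFNA1, is a membrane-anchored ligand of EphA receptors on neighbouring cells and acts in cell contact and adhesion. SPRY4 is a Sprouty protein, an intracellular inhibitor that receptor tyrosine kinase signalling through RAS and ERK induces and that restrains the same pathway. In bulk tissue, fewer cells of a type and less RNA per cell cannot be told apart.

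Each gene had a course of its own. RET was highest before and just after dry-off and lowest at D25. NGFR was low at D-3 and D3 and high from D7 on. The EFNA1 locus peaked at D3, whereas SPRY4 dipped at D3 and had a median near that of late lactation again at D7. Over all loci, 15.1% passed a false discovery rate (FDR) of 0.05 for D3 vs. D-3 and 2.92% for D7 vs. D3 (edgeR, described below), and nothing is read from this for the 4 genes, which those comparisons chose.

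**Figure D1:**
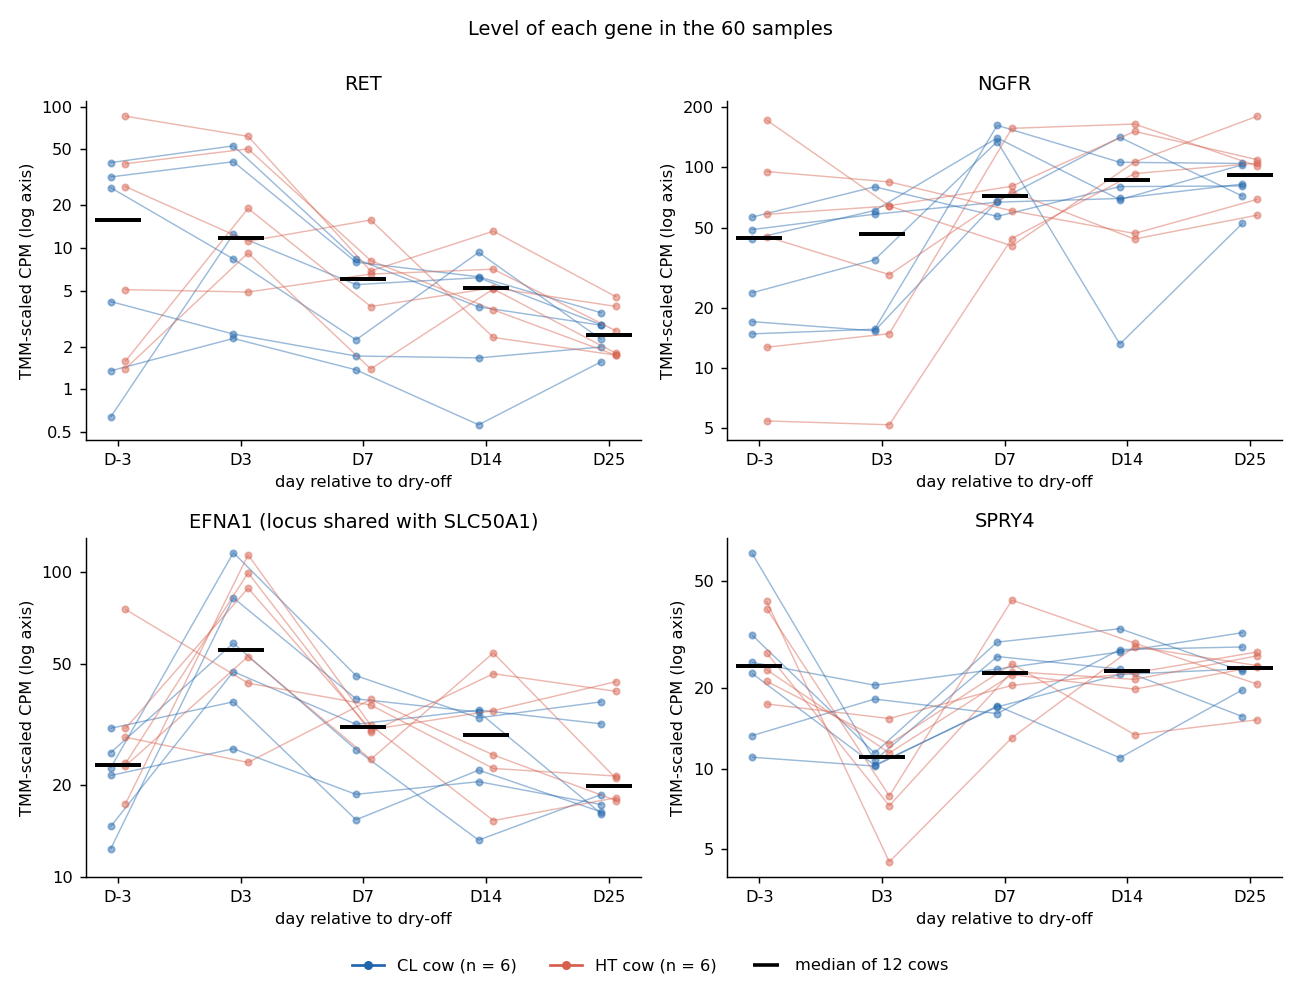
TMM-scaled CPM (log axis) of RET, NGFR, EFNA1 and SPRY4 in each of 12 cows (6 CL in blue, 6 HT in red) on the 5 biopsy days, with a line per cow and a black bar for the median of the 12 cows. The median of RET went from 15.9 CPM at D-3 to 2.43 CPM at D25, that of EFNA1 was highest at D3 (55.7 CPM) and that of SPRY4 lowest at D3 (11.1 CPM).

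The receptor RET differed more between cows before dry-off than at any later day. At D-3 the lowest, median and highest of the 12 cows were 0.640, 15.9 and 85.4 CPM, and at D3 they were 2.29, 11.8 and 61.5 CPM. At D7 they were 1.37, 6.03 and 15.8 CPM, and at D14 0.562, 5.18 and 13.1 CPM. At D25 they were 1.57, 2.43 and 4.52 CPM. The coefficient of variation between cows thus went from 115% at D-3 to 36.3% at D25. The 2 days with the highest medians, D-3 and D3, overlapped almost entirely, and RET was higher at D3 in 7 cows and lower in 5. Their fitted difference was a log2 fold change of 0.06 (SE 0.54).

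Between D3 and D7, RET was lower at D7 in 10 of 12 cows, including all 6 CL cows, a count that 7.16% of loci reached or passed. The fitted log2 fold change for D7 vs. D3 was -1.98 (SE 0.56), a 3.94-fold lower level. The exceptions were the HT cows 8513, which went from 11.2 to 15.8 CPM, and 8668, which went from 4.88 to 6.54 CPM. At D25, RET was below its D3 level in 12 of 12 cows, by 0.29 to 4.78 on the log2 scale. A lower level in all 12 cows was seen for 1.01% of the loci tested. Within the HT cows the D25 samples (1.74 to 4.52 CPM) did not overlap those of D3 (4.88 to 61.5 CPM), as was the case for 0.374% of loci in either direction, whereas within the CL cows they did.

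NGFR, the neurotrophin receptor, was low in a subset of cows until D3 and not thereafter. At D-3 the lowest, median and highest values were 5.44, 44.5 and 172 CPM, and at D3 they were 5.20, 46.5 and 84.7 CPM. At D7 they were 40.6, 71.8 and 162 CPM, at D14 13.1, 86.7 and 165 CPM, and at D25 52.6, 92.1 and 180.0 CPM. The lowest value from D7 on, 13.1 CPM, belonged to the D14 library of CL cow 7965, which stands apart from all others as described below. For D3 vs. D-3 the log2 fold change was -0.18 (SE 0.38), with 7 cows higher and 5 lower. For D7 vs. D3 it was 1.04 (SE 0.38), a 2.06-fold higher level at D7, with 9 cows higher and 3 lower.

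The 3 cows with less NGFR at D7 than at D3 were CL cow 8686 and HT cows 8513 and 8668, which already had at least 64.2 CPM at D3. The largest changes were those of HT cow 8541, from 14.8 to 157 CPM, CL cow 8647, from 15.6 to 162 CPM, and HT cow 8713, from 5.20 to 44.2 CPM. The D7 library of cow 8541 resembled another cow best, as described below. At D25 NGFR was above its D3 level in 11 of 12 cows, a count of at least 11 that 4.92% of loci reached upward. Within the CL cows the D7 samples (56.97 to 162 CPM) did not overlap those of D-3 (14.8 to 56.5 CPM), as for 0.544% of loci, but within the HT cows, with 40.6 to 157 and 5.44 to 172 CPM, they did.

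The EFNA1 locus was highest at D3. Its lowest, median and highest values were 12.4, 23.4 and 75.4 CPM at D-3 and 23.8, 55.7 and 116 CPM at D3. They were 15.4, 31.0 and 45.8 CPM at D7, 13.2, 29.2 and 54.3 CPM at D14, and 16.2, 19.9 and 43.7 CPM at D25. The values at D3 overlapped those of every other day. Within cows, however, the locus was higher at D3 than at D-3 in 10 of 12, as for at least as many cows in 9.02% of loci, with a log2 fold change of 1.27 (SE 0.25) or 2.41-fold. It was lower at D7 than at D3 in 11 of 12 cows, a count that 2.55% of loci reached, with a log2 fold change of -1.10 (SE 0.25). At D25 it was below D3 in 12 of 12 cows (as for 1.01% of loci), whereas against D-3 it was higher in 6 cows and lower in 6.

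The HT cows 8513 and 8668 were the exceptions at D3, where EFNA1 went from 75.4 to 43.2 CPM and from 28.8 to 23.8 CPM. The samples of cow 8513 are in doubt on every day and those of cow 8660 on the later days (below). Without cows 8513 and 8660, the log2 fold change for D3 vs. D-3 was 1.59. The 5 cows with the strongest differences, CL 8647, HT 8713, CL 8564, HT 8541 and CL 8603, had 12.4 to 23.6 CPM at D-3 and 47.2 to 116 CPM at D3.

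SPRY4, the feedback inhibitor, had the opposite course. Its lowest, median and highest values were 11.03, 24.1 and 63.5 CPM at D-3 and 4.49, 11.1 and 20.5 CPM at D3. They were 13.04, 22.7 and 42.5 CPM at D7, 10.97, 23.1 and 33.2 CPM at D14, and 15.2, 23.8 and 32.1 CPM at D25. The medians of all days but D3 thus lay between 22.7 and 24.1 CPM, while the coefficient of variation between cows went from 51.7% at D-3 to 21.4% at D25. SPRY4 was lower at D3 than at D-3 in 11 of 12 cows, a count that 3.38% of loci reached, with a log2 fold change of -1.26 (SE 0.21), a 2.39-fold lower level. The exception was CL cow 8060, with 13.3 and 18.2 CPM. Within the HT cows the D3 samples (4.49 to 15.4 CPM) did not overlap those of D-3 (17.4 to 42.0 CPM), as for 0.136% of loci, while those of the CL cows (10.2 to 20.5 and 11.03 to 63.5 CPM) did.

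SPRY4 was higher at D7 than at D3 in 11 of 12 cows, all 6 HT cows included, a count that 2.52% of loci reached, with a log2 fold change of 0.97 (SE 0.21). CL cow 8060 was again the exception, with 16.04 CPM at D7. At D25, SPRY4 was above its D3 level in 12 of 12 cows, by 0.30 to 2.41 on the log2 scale, as were 0.992% of loci. For D7 vs. D-3 the cows were divided, 5 higher and 7 lower.

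**Figure D2:**
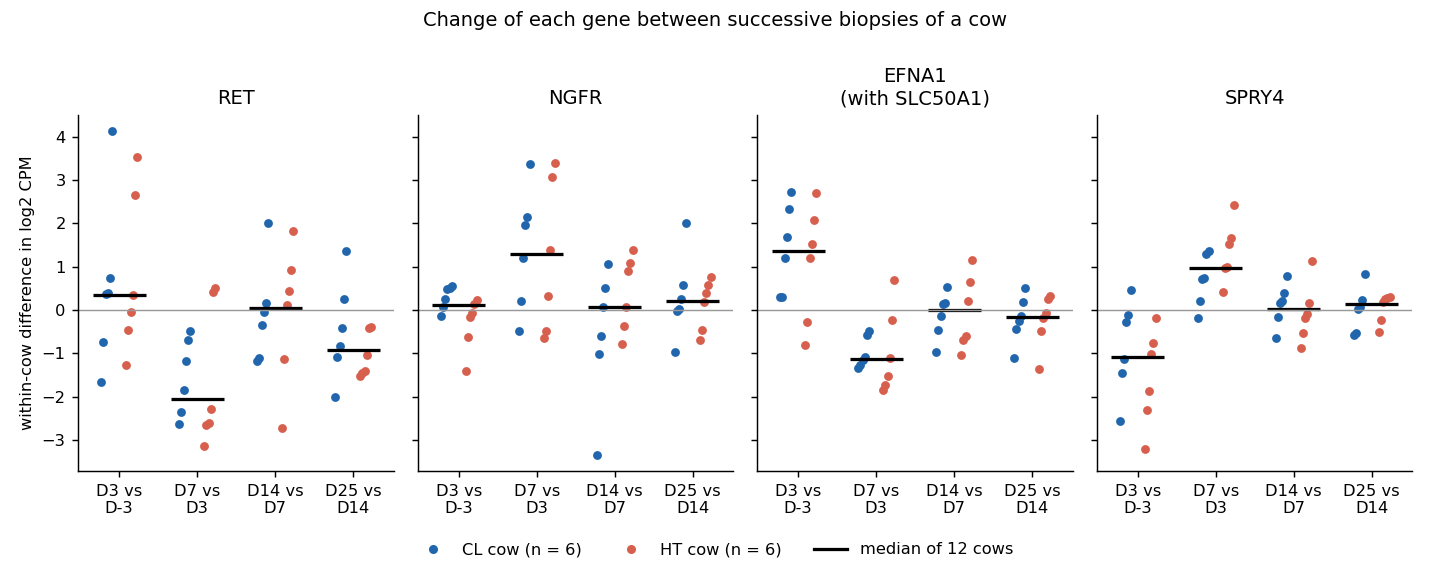
Within-cow difference in log2 CPM (prior count 2) between successive biopsies for RET, NGFR, EFNA1 and SPRY4, with a point per cow (6 CL in blue, 6 HT in red) and a black line for the median of the 12 cows. The median was -2.07 for RET and 1.29 for NGFR at D7 vs. D3, whereas at D14 vs. D7 the medians of all 4 genes lay between -0.00 and 0.07.

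The scaling bears on the first of these comparisons. In the 12 samples of D-3, the share of the milk genes CSN1S1, CSN2 and LALBA varied between 0.190% and 49.8% of all counts, and the TMM factors ranged from 0.300 to 1.21, against 1.07 to 1.20 at D25. With library size alone in place of TMM, the median log2 fold change of all loci for D3 vs. D-3 was 0.35, against -0.01 with TMM. RET then had a log2 fold change of 1.03, which is 0.68 above that median, and SPRY4 one of -0.58, which is 0.93 below it. EFNA1 (1.45) was 1.10 above that median and kept its direction. NGFR (-0.04) was 0.39 below it, where with TMM it was 0.17 below the median of all loci.

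The cows fell into 2 sets by milk genes at D-3. In 5 cows (CL 7965, 8564 and 8647, HT 8541 and 8713) these genes took 40.2% to 49.8% of the counts, and in the other 7 cows (3 CL and 4 HT) 0.190% to 8.03%. The sets were made after seeing the data, with a limit of 10%, and are no groups of the study. NGFR was 5.44 to 23.7 CPM in the 5 milk-rich samples and 43.9 to 172 CPM in the other 7, without overlap. How many of all loci separate the same sets was not counted, so nothing particular to NGFR is read from this. RET was 26.7 to 85.4 CPM in the 5 samples and 0.640 to 5.08 CPM in 6 of the other 7, but HT cow 8513, with 0.81% milk genes, had 27.2 CPM. SPRY4 (22.7 to 63.5 against 11.03 to 26.996 CPM) and EFNA1 (12.4 to 25.6 against 14.7 to 75.4 CPM) overlapped between the sets.

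**Figure D3:**
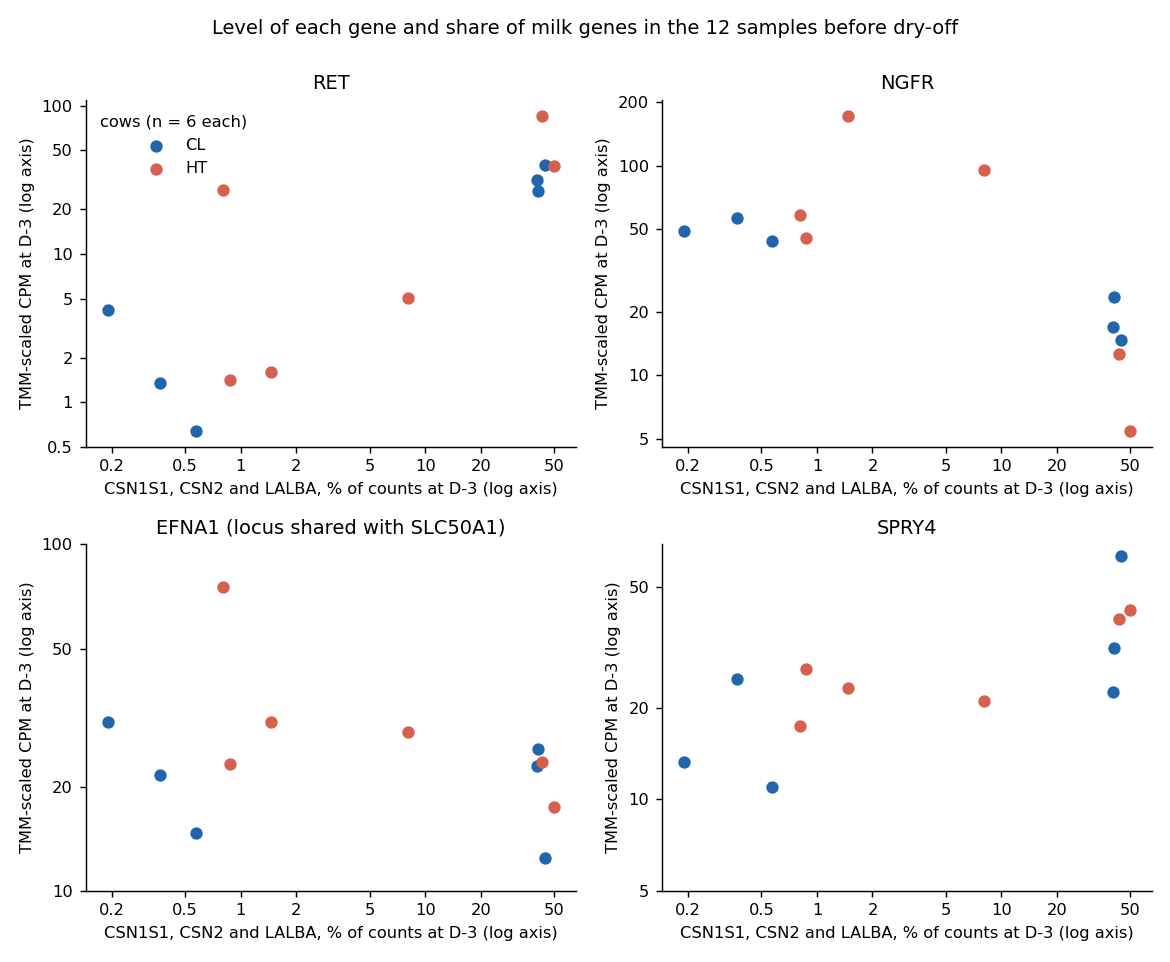
TMM-scaled CPM (log axis) of each gene at D-3 against the percentage of counts from CSN1S1, CSN2 and LALBA in the same sample (log axis), with a point for each of 6 CL (blue) and 6 HT (red) cows. NGFR was at most 23.7 CPM in the 5 samples with over 40% milk genes and at least 43.9 CPM in the other 7, whereas RET was at least 26.7 CPM in those 5. The share of loci with such a separation was not counted.

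The later differences in the same sets of cows are a description only. They include the comparisons that chose the genes, and those of D3 vs. D-3 reuse the D-3 samples that define the sets. For D7 vs. D3, NGFR was higher by 1.96 to 3.39 on the log2 scale in the 5 cows that had been milk-rich, while in the other 7 the differences ran from -0.66 to 1.37, with 4 cows higher and 3 lower. RET was lower in all 5, by 1.86 to 3.15, and in 5 of the other 7. For D3 vs. D-3, EFNA1 was higher in all 5 (median log2 difference 2.34) and in 5 of the other 7 (median 0.29). SPRY4 was lower in all 5 (median -2.31) and in 6 of the other 7 (median -0.28). At D7 the ranges of the sets overlapped for all 4 genes, with NGFR for example at 44.2 to 162 and 40.6 to 140 CPM. Between D14 and D25, SPRY4 was lower in 4 of the 5 cows (median log2 difference -0.51) and higher in all of the other 7 (median 0.26). What part the makeup of the D-3 biopsies had in these differences was not tested. How many of all loci differ between the sets in these ways was not counted, so nothing particular to the 4 genes is read.

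Markers of other cell types are given for the same days as the summed CPM of each list. Most of these markers could not be paired with a locus. The pairing used a part of the supplementary tables that lists genes by their change at D3 or D7. The changes and FDRs of the paired markers are therefore a description only. Of the tested loci with a symbol, 55.4% passed an FDR of 0.05 at D3 vs. D-3 and 13.3% at D7 vs. D3. The mammary epithelial keratin KRT19, the paired gene of 8 luminal markers, was present in every library, with medians of 908 CPM (453 to 1180), 917 CPM (458 to 3227) and 588 CPM (259 to 983) on the first 3 days. Of 8 basal and myoepithelial markers, 5 were paired (ACTA2, CNN1, KRT17, KRT5 and MYLK), with medians of 1203 CPM (485 to 2492), 2345 CPM (963 to 3614) and 1142 CPM (803 to 1602). Of these, 3 were upregulated at D3 and all 5 downregulated at D7, where 23% and 10.6% of loci with a symbol were. They thus had the order of days of the EFNA1 locus, were lower at D7 as was RET, and by day ran against NGFR, which was higher at D7. Pearson's correlation of their log2 CPM with that of NGFR was also taken over the 60 samples, with the mean of each treatment and day removed. It was 0.47 for KRT5 and 0.18 for KRT17, but -0.23 for ACTA2, -0.35 for CNN1 and -0.31 for MYLK. MBP, the paired gene of 8 nerve and Schwann cell markers, had medians of 7.41 CPM (4.24 to 22.98), 15.5 CPM (7.13 to 27.4) and 9.15 CPM (6.24 to 13.02), with the same order of days as the EFNA1 locus (FDR = 0.00127 at D3 and 0.0164 at D7).

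EMCN, the paired gene of 8 endothelial markers, had medians of 36.6 CPM (22.9 to 64.6), 26.3 CPM (15.4 to 40.7) and 31.0 CPM (18.7 to 43.1), lowest on D3 as for SPRY4 (FDR = 0.0179 at D3 and 0.547 at D7). DCN, the paired gene of 8 fibroblast markers, had 672 CPM (386 to 1056), 702 CPM (405 to 1205) and 1025 CPM (633 to 1625), and it did not pass at D3 or D7 (FDR = 0.795 and 0.261). Adipocyte markers, of which 2 of 8 (ADIPOQ and FABP4) were paired, had 152 CPM (50.4 to 583), 59.7 CPM (12.02 to 193) and 91.7 CPM (27.4 to 197), with FABP4 downregulated at D3 (FDR = 0.013). MYH2, the paired gene of 6 for skeletal muscle, had 0.571 CPM (0 to 2.58), 3.65 CPM (0.450 to 16.7) and 0.147 CPM (0 to 1.16), upregulated at D3 (FDR = 0.00913) and downregulated at D7 (FDR = 0.00253). None of 8 leukocyte markers was paired. The part of these cells in the courses of RET, NGFR, EFNA1 and SPRY4 was not tested.

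The steady state and redevelopment were compared by edgeR's quasi-likelihood F-test over the 60 samples, with loci at an FDR of at most 0.05 taken as differentially expressed genes (DEGs). For D14 vs. D7, none of the 4 genes was a DEG, where 0% of the 14714 loci were DEGs and 257 had an unadjusted p under 0.05. This comparison shares the D7 samples that helped to choose RET, NGFR and EFNA1. The log2 fold changes were -0.11 for RET (95% interval -1.21 to 0.98), -0.00 for NGFR (-0.75 to 0.75), -0.03 for EFNA1 (-0.53 to 0.46) and 0.03 for SPRY4 (-0.39 to 0.44). The edgeR FDR was 0.99996 for each of them. The intervals of EFNA1 and SPRY4 leave out a change of 1.5-fold in either direction, while that of RET reaches beyond a 2-fold lower level. These intervals come from a fit without a term for the cow, so they do not use the pairing of days.

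For D25 vs. D14, of which neither day chose the genes, again none of the 4 was a DEG, where 0.0612% of the loci were. RET had the largest difference, with medians of 5.18 and 2.43 CPM, lower at D25 in 10 of 12 cows and in all 6 HT cows (3 of 5 among the cows whose D14 library resembled their own other days best, as described below), where 2.4% of loci were lower in at least 10 cows. Its log2 fold change was -1.04 (SE 0.56, 95% interval -2.15 to 0.07, edgeR unadjusted p = 0.0665, FDR = 0.9997), so the difference did not pass the test. The other log2 fold changes were 0.04 for NGFR (-0.71 to 0.79), -0.25 for EFNA1 (-0.75 to 0.25) and -0.00 for SPRY4 (-0.42 to 0.41). The ranges of D14 and D25 overlapped for all 4 genes.

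Heat stress was then compared with cooling at each day in its 6 HT and 6 CL samples, a contrast that did not enter the choice of the genes. None of the 4 genes differed between HT and CL at an FDR of at most 0.05 at any of the 5 days, where 0% of loci did at each day. In the order of the days, 298, 97, 672, 247 and 333 loci had an unadjusted p under 0.05. The samples of HT and CL overlapped for each gene at each day, and over all loci 0.0544%, 0.0136%, 0.143%, 0.0408% and 0.068% did not overlap, in the order of the days.

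At D-3, before the treatments, the cows assigned to HT had medians of 16.1 CPM of RET (1.40 to 85.4), 51.8 CPM of NGFR (5.44 to 172) and 26.2 CPM of EFNA1 (17.4 to 75.4). The cows assigned to CL had 15.4 (0.640 to 40.2), 33.8 (14.8 to 56.5) and 22.2 CPM (12.4 to 30.8). The log2 fold change of EFNA1, HT over CL, was 0.65 (95% interval -0.11 to 1.41, edgeR unadjusted p = 0.0869, FDR = 0.999992) and that of NGFR 0.93 (-0.49 to 2.36, unadjusted p = 0.179). In both genes this difference before treatment was larger in size than that of any later day.

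At D3, SPRY4 had a median of 9.67 CPM in HT (4.49 to 15.4) and 11.1 CPM in CL cows (10.2 to 20.5), a log2 fold change of -0.47 (95% interval -1.11 to 0.18, edgeR unadjusted p = 0.142, FDR = 0.999985). The 2 lowest SPRY4 values after 4.49 CPM in HT cow 8713 were 7.28 and 7.91 CPM, also in HT cows. NGFR at D7 was 68.3 CPM in HT (40.6 to 157) and 101 CPM in CL cows (56.97 to 162), with a log2 fold change of -0.47 (-1.24 to 0.30, edgeR unadjusted p = 0.214, FDR = 0.959). Without HT cow 8541, whose 157 CPM stood far above the other HT cows, it was -0.81, and without CL cow 8647 it was -0.29. RET at D7 was 6.71 CPM (1.40 to 15.8) and 3.88 CPM (1.37 to 8.36), with 0.64 (-0.59 to 1.87, edgeR unadjusted p = 0.279, FDR = 0.959), and without HT cow 8513 it was 0.24. Leaving out 1 cow at a time, this log2 fold change of RET ranged from 0.24 to 0.92.

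At D14 the medians in HT and CL cows were 5.18 and 5.00 CPM of RET, 99.7 and 75.1 CPM of NGFR, 30.2 and 27.9 CPM of EFNA1 and 22.1 and 25.4 CPM of SPRY4. At D25 they were 2.197 and 2.55 CPM of RET, 103 and 81.7 CPM of NGFR, 21.3 and 17.99 CPM of EFNA1 and 24.1 and 23.3 CPM of SPRY4. The narrowest interval of all was that of SPRY4 at D25, where the log2 fold change was -0.05 (95% interval -0.44 to 0.34), and the widest after the treatments began was that of RET at D3, where it was 0.37 (-1.33 to 2.08). A difference of 2-fold between HT and CL at D25 lay outside the intervals of all 4 genes, whereas at D3 each of their intervals reached 2-fold in at least 1 direction.

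**Figure D4:**
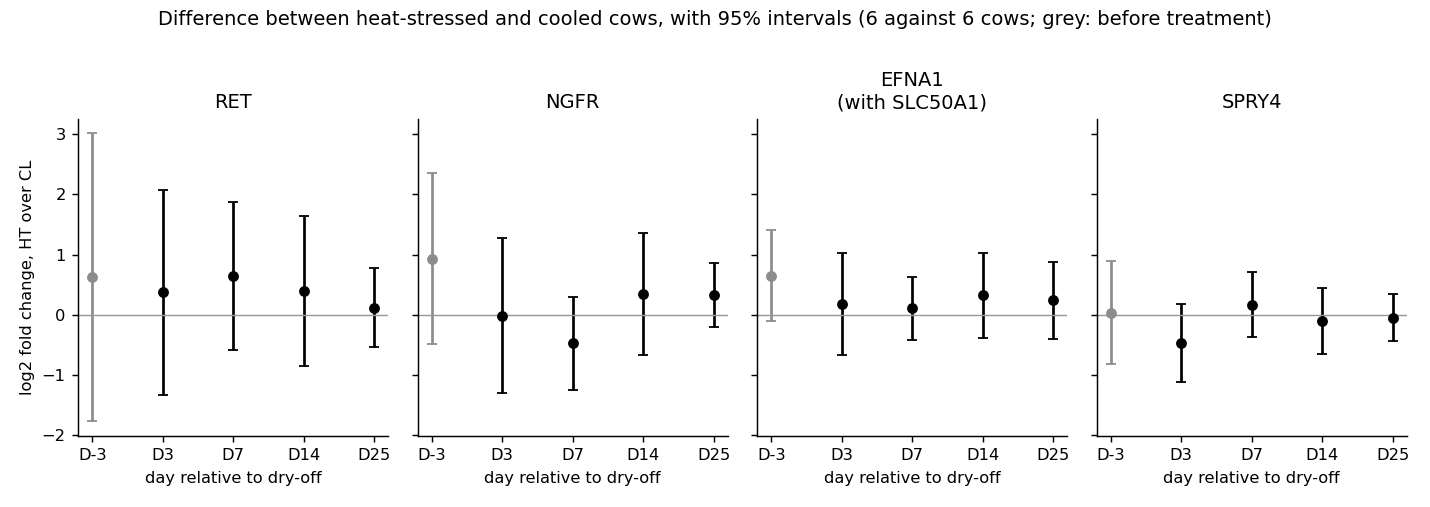
Log2 fold change of HT over CL with its 95% interval at each day for RET, NGFR, EFNA1 and SPRY4 (6 HT and 6 CL cows per day, D-3 in grey). Each interval includes 0, and that of SPRY4 at D25 (-0.44 to 0.34) is the narrowest.

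The interaction of treatment and time, which asks whether the course over the 5 days differed between HT and CL, gave 0 DEGs among the 14714 loci (0%), and 85 loci had an unadjusted p under 0.05. For RET, NGFR, EFNA1 and SPRY4 the unadjusted p was 0.991, 0.471, 0.857 and 0.646 by edgeR, and the FDR was 1 for each.

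The wider pathways were given by 6 lists with 121 genes. Symbols could be paired with a locus for 35 of them, of which 34 were tested. The pairing used the part of the supplementary tables held here, and that part lists genes by their change at D3 or D7. The paired genes are therefore no fair sample of a pathway, and their counts are set beside those of the 3007 tested loci with a symbol as well as of all loci. For D3 vs. D-3, 7 of the 34 genes were upregulated and 6 downregulated, against 6.03% and 9.04% of all loci and 23% and 32.4% of loci with a symbol. For D7 vs. D3, 1 was upregulated and 5 downregulated, against 0.625% and 2.3% of all loci and 2.63% and 10.6% of loci with a symbol. In either direction, 55.4% of loci with a symbol passed at D3 and 13.3% at D7. The median log2 fold change of the 34 genes was 0.11 and then -0.23, against -0.01 and 0.00 over all loci.

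Among genes of RET signalling, 6 of 23 were tested. NRTN, the neurturin ligand, had medians of 7.93 CPM at D-3, 9.02 CPM at D3 and 4.13 CPM at D7, and it was downregulated at D7 vs. D3 (log2 fold change -1.05, SE 0.26, FDR = 0.0164), being lower in 10 of 12 cows. GFRA2, the co-receptor that binds neurturin, had 4.02, 1.83 and 3.09 CPM and was downregulated at D3 vs. D-3 (-1.51, SE 0.40, FDR = 0.00758), being lower in 10 of 12 cows, where 9.86% of loci were lower in at least 10. With library size alone the FDR of GFRA2 was 0.158 and its log2 fold change -0.57, where the median of all loci was 0.35. The ligand and the receptor RET thus both had lower medians at D7 than at D3, while the co-receptor had its lowest median at D3.

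The adaptor GRB10, which binds activated receptor tyrosine kinases, was downregulated at D7 vs. D3 (log2 fold change -0.43, FDR = 0.024). The phosphatase PTPN11, which acts between receptors and RAS and was named because it was the only other DEG of the list, was upregulated at D3 vs. D-3 (0.29, FDR = 0.0253). The docking protein GAB1 did not pass in either comparison (0.27, FDR = 0.109, and -0.38, FDR = 0.0552). GRB7, another adaptor of receptor tyrosine kinases, was named after its values were seen. It was higher at D3 than at D-3 in 9 of 12 cows (log2 fold change 0.79, FDR = 0.067) and lower at D7 than at D3 in 12 of 12 cows (-0.74, FDR = 0.183), as were 0.381% of loci. With the cow as a block its FDR was 0.018 and 0.0768. GDNF, ARTN, PSPN, GFRA1, GFRA3 and GFRA4 were not analysed here, as the tables held did not pair them with a locus.

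Of 21 neurotrophin receptor genes, 8 were tested. SORT1, the sortilin that forms a receptor with NGFR for unprocessed neurotrophins, was upregulated at D3 vs. D-3 (log2 fold change 0.91, SE 0.20, FDR = 0.00121). Its median was 88.9 CPM at D-3 and 184 CPM at D3, and it was higher in 11 of 12 cows, as were 2.62% of loci in at least 11. ADAM17, a protease that sheds NGFR and other membrane proteins, was upregulated as well (0.57, FDR = 8.36e-04). IRAK1, a kinase that takes part in p75 and toll-like receptor signalling, was downregulated (-0.52, FDR = 0.00337). With library size alone its log2 fold change was 0.08 (FDR = 0.63), where the median of all loci was 0.35.

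NTRK2, the Trk receptor for BDNF, had medians of 26.6, 26.5 and 45.7 CPM at D-3, D3 and D7. At D7 vs. D3 it was higher in 10 of 12 cows, as were 7.27% of loci in at least 10, but it did not pass the test (log2 fold change 0.90, SE 0.33, FDR = 0.121). RTN4R, the Nogo receptor that NGFR can serve as a co-receptor, had 0.61 and -0.74 in the 2 comparisons and did not pass either (FDR = 0.101 and 0.0912). No gene of this list was a DEG at D7 vs. D3. LINGO1, which forms a complex with RTN4R and NGFR and was named after its values were seen, was higher at D7 in 12 of 12 cows (log2 fold change 0.48, FDR = 0.161, and 0.0481 with the cow as a block). BDNF, NTF3, NTF4 and NTRK3 were not analysed here.

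Of 25 ephrin and Eph receptor genes, 3 were tested. EPHA4, a receptor of A-type ephrins, had medians of 10.6 CPM at D-3, 7.62 CPM at D3 and 12.6 CPM at D7. It was upregulated at D7 vs. D3 (log2 fold change 0.51, SE 0.14, FDR = 0.0302) and higher in 12 of 12 cows, as were 0.292% of loci. Its median was thus lowest at the day when the median of the EFNA1 locus was highest. EPHB3, a receptor of B-type ephrins, had 0.47 at D7 vs. D3 (FDR = 0.127), and VAV2, an exchange factor downstream of EphA receptors, had -0.33 (FDR = 0.15). EPHA6 was paired but fell below the filter on low counts, and EPHA1, EPHA2, EPHA3, EPHA5, EPHA7 and EPHA8 were not analysed here.

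Among Sprouty and other inhibitors of ERK signalling, 2 of 12 genes were tested. SPRY2, a close relative of SPRY4, had medians of 39.9, 38.2 and 37.0 CPM at D-3, D3 and D7, with log2 fold changes of -0.12 (SE 0.11, FDR = 0.534) and -0.02 (SE 0.11, FDR = 0.969). DUSP4, a phosphatase of ERK, was downregulated at D3 vs. D-3 (-2.72, SE 0.53, FDR = 3.14e-04). Its median was 53.9 CPM at D-3, with a range of 11.7 to 739 CPM, and 20.3 CPM at D3, with 10.1 to 56.2 CPM. At D7 vs. D3, DUSP4 did not pass (log2 fold change 0.25, FDR = 0.889). Its median at D7 was 17.2 CPM, below that of D3, so the median and the fitted change differed in direction. SPRY1 and SPRY3 were not analysed here.

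In the ERK cascade and its target genes, 10 of 21 genes were tested, of which 3 were upregulated at D3 vs. D-3 and 3 downregulated at D7 vs. D3. FOSL1, an AP-1 transcription factor that ERK signalling induces, was upregulated (1.92, SE 0.49, FDR = 0.00511) and then downregulated (-1.68, SE 0.48, FDR = 0.039), at medians of 0.496, 1.10 and 0.427 CPM. MAPK3, which encodes ERK1 and shares its locus with another gene, changed likewise (0.72, FDR = 7.05e-04, and then -0.60, FDR = 0.0209), with medians of 67.9, 98.5 and 71.7 CPM. IER3, an immediate early gene, was upregulated (0.97, FDR = 0.0061), and its later log2 fold change was -0.84 (FDR = 0.0504). HRAS was downregulated at D7 vs. D3 (-0.66, FDR = 0.0161).

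Of 19 receptors and ligands upstream of Sprouty, 5 were tested. VEGFA, the vascular growth factor, was downregulated at D3 vs. D-3 (log2 fold change -1.15, SE 0.16, FDR = 1.82e-06) and lower in 11 of 12 cows, with medians of 83.9, 58.4 and 76.3 CPM at D-3, D3 and D7. Its receptors KDR (-0.95, FDR = 0.0023) and FLT1 (-0.86, FDR = 0.00415) were downregulated too. With library size alone neither was a DEG. Their log2 fold changes were then -0.06 and -0.00, where the median of all loci was 0.35. EGFR, the receptor of epidermal growth factor, was upregulated (0.86, SE 0.20, FDR = 0.00242). None of the 5 was a DEG at D7 vs. D3. VEGFA was then higher in 12 of 12 cows (by 0.04 to 0.97 on the log2 scale, a uniform direction in 0.292% of loci), with a log2 fold change of 0.40 (FDR = 0.155, and 0.126 with the cow as a block).

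**Figure D5:**
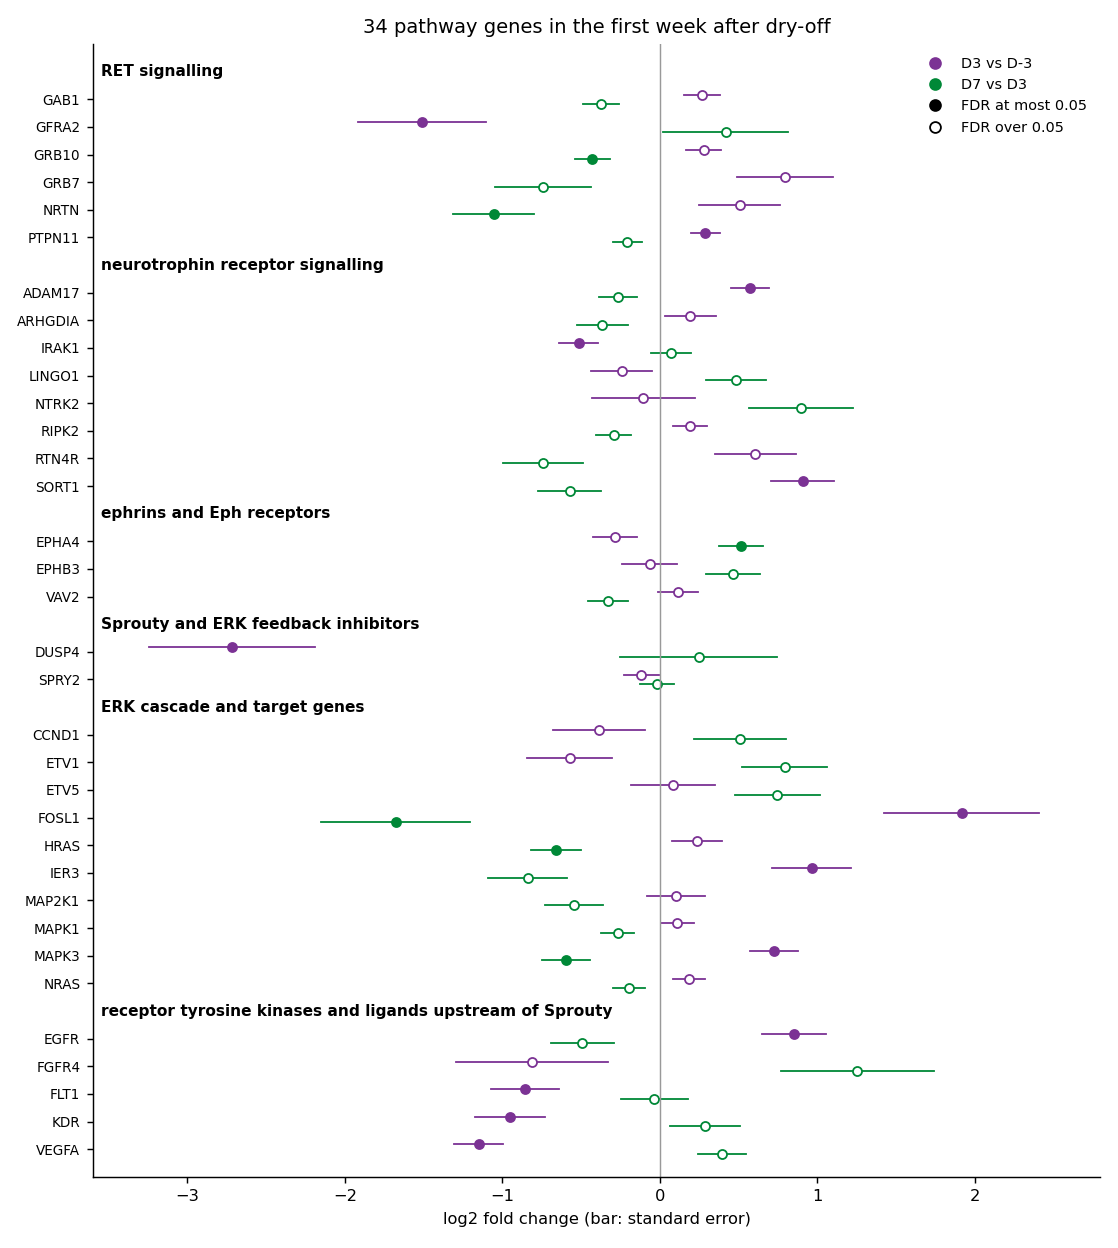
Log2 fold change of 34 pathway genes, by list, for D3 vs. D-3 (purple) and D7 vs. D3 (green), with bars for the standard error and filled points for an FDR of at most 0.05 (edgeR, 60 samples). At D3 vs. D-3, 7 genes were up and 6 down, and at D7 vs. D3 1 was up and 5 down.

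The FDR was adjusted over all loci. With the cow as a block, 11 pathway genes were up at D3 vs. D-3 and 3 at D7 vs. D3, in place of 7 and 1. The genes gained were GAB1, GRB7, GRB10 and RIPK2 at D3 and EPHB3 and LINGO1 at D7, and GAB1 and RIPK2 were gained among those down at D7. Over all loci the block gave 1261 up at D3 and 308 up and 573 down at D7, in place of 887, 92 and 338. Leaving out cow 8564 changed the 7 genes up at D3 to 4, and the 5 genes down at D7 became 1 without cow 8564 or 8713, 2 without 8541 or 8647, 3 without 8660, and 8 without 8513 or 8668. The counts of all loci moved too, with 887 up at D3 becoming 440 without cow 8564. The 338 loci down at D7 became 43 without cow 8564, 116 without 8713, 102 without 8541 and 110 without 8647. They became 211 without 8660, 436 without 8513 and 471 without 8668. The single pathway gene up at D7 was lost without each of cows 8060, 8541, 8564, 8603, 8647, 8660 and 8713. Over all loci, 92 were up at D7, and 6 to 42 without each of these cows. At D14 vs. D7, at D25 vs. D14 and for HT vs. CL at any day, none of the 34 genes was a DEG. The smallest unadjusted p among them for HT vs. CL was that of GFRA2 at D7 (log2 fold change 1.19, SE 0.37, edgeR unadjusted p = 0.00613, FDR = 0.959), and DUSP4 at the same day had 1.29 (unadjusted p = 0.0396).

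The loci most like each gene were found by Pearson's correlation of log2 CPM over the 60 samples, among loci with a symbol. Samples of a cow are not independent, so these values are a description. For RET they were PIEZO1 (0.90), BCL6 (0.89), ANO10 (0.88), IFNGR2 (0.86) and TMBIM1 (0.86). With the mean of each treatment and day removed they were 0.89, 0.87, 0.85, 0.83 and 0.83, so that the likeness was found among the cows of a day as well. For NGFR they were SAPCD2 (0.91), CRYM (0.89), IGSF9 (0.88), CEP72 (0.85) and ELFN2 (0.84).

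For the EFNA1 locus the most like were ALDH3A2 (0.94), VWA1 (0.90), PLXNB2, a semaphorin receptor (0.89), FLOT2 (0.89) and RAB24 (0.88), and they were at 0.84 to 0.91 with the group means removed. SPRY4 had weaker partners, namely APLN, the apelin peptide (0.68), FAN1 (0.68), PFKM (0.67), RNASEH2A (0.66) and LHX6 (0.65), which were at 0.47 to 0.53 with the group means removed. Among the 4 genes, RET and NGFR were correlated at -0.65 (-0.57 with the group means removed) and EFNA1 and SPRY4 at -0.62 (-0.40). RET and EFNA1 were at 0.54, and the other pairs lay between -0.20 and 0.22. Within the lists, GFRA2 was at 0.64 with RET and at 0.84 with the group means removed, and NTRK2 was at 0.77 with NGFR.

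Some libraries call for care. The D14 library of CL cow 7965 had a median correlation of 0.824 with the other libraries, with 3.36 CPM of the epithelial keratin KRT19 and 5393 CPM of DCN, a fibroblast gene. Without this cow the log2 fold change of RET for D25 vs. D14 was -0.92 and that of NGFR for D14 vs. D7 was 0.17, and none of the 4 genes was a DEG. By the deviations from the group means, 44 of the 60 libraries resembled the other days of their own cow best and 16 those of another cow of the same treatment. At D14 these were 7 of 12 libraries, those of CL cows 7965 and 8603 and HT cows 8314, 8513, 8660, 8668 and 8713, so the within-cow counts for D14 rest on the labels as deposited. The HT cows 8513 and 8660 resembled each other best at both D14 and D25, and at D14 the HT cows 8668 and 8713 did so as well. Cow 8513 also resembled cow 8541 best at D-3 and D7 and cow 8660 at D3. Its label is thus in doubt on every day, and so are the values for which it was named above as an exception. The remaining libraries that resembled another cow best were those of CL cows 7965 and 8603 at D-3 and HT cows 8541 and 8660 at D7. Values from these libraries also rest on the labels as deposited. They include the 0.640 CPM of RET at D-3 and the strong EFNA1 difference of cow 8603, and the 157 CPM of NGFR at D7 of cow 8541. In the 7 cows RET was lower at D25 than at D14 in 7 of 7, and in the other 5 cows it was lower in 3 and higher in 2, a division made after seeing the data. Without cows 8513 and 8660, RET was lower and SPRY4 higher at D25 than at D3 in 10 of 10 cows, EFNA1 was lower in 10 of 10 and NGFR higher in 9 of 10. The EFNA1 peak of 75.4 CPM at D-3 belonged to cow 8513.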

How the data were processed

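Mammary biopsies of 12 cows at 5 time points gave 60 libraries, sequenced single-ended on a NextSeq 500 from poly(A) RNA. Trimming by the authors used Trim Galore 0.4.1, mapping to the bovine genome TopHat 2.0.13, and assembly Cufflinks 2.2.1, merged with the ENSEMBL annotation. Uniquely mapped reads were then counted with htseq-count, and the authors deposited these raw counts per locus without normalization. The build is given as bosTau7 in the methods and as UMD3.1 in the submitters' processing notes, and no coordinates are printed. Each file has 26073 entries for 25223 loci, and a locus joining several genes entered once. Total counts had a median of 22637562.5 per library, and at that depth the lowest value of the 4 genes was 14 counts.

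The 14714 loci that reached 1 CPM in 6 or more of the 60 samples were tested with edgeR 4.0.16 in R 4.3.3 (TMM, quasi-likelihood F-test, Benjamini-Hochberg FDR). Time was fitted over 60 samples with a mean per day, HT vs. CL over the 12 samples of a day, and the interaction over 60 samples. The cow is the biological replicate and, per the labels, links the 5 days. Deviations from the group means correlated at 0.293 on average between samples of a cow (120 pairs) and at -0.0573 between cows of a treatment (600 pairs). Levels are CPM after TMM, and log2 CPM used a prior count of 2. Tables and figures used Python 3.11.15, pandas 2.3.3, numpy 2.4.6 and matplotlib 3.10.9.

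The genes described and the lists were chosen with earlier results of these data known. Named genes are the 4 genes, up to 4 genes of each list with the smallest p in D3 vs. D-3 or D7 vs. D3, the direct ligands and receptors and the other Sprouty genes, and the 5 loci most like each gene. The part of the supplementary tables held here pairs 3033 loci with a symbol. The fits were tested on simulated data. Alternatives were RLE factors, library size only, no filter, DESeq2 1.42.0, the cow as a block, and cows left out. The authors' own comparisons were not used.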

Additional observations from a re-analysis of the deposited data

Results flagged for a closer look

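In 2 of the 40 groups of 6 samples of RET, NGFR, EFNA1 and SPRY4, 1 library lay far from the other 5. For normally distributed values, chance gives such a library in about 1 in 20 groups. The rate for these CPM values was not computed. NGFR in HT cows at D7 was 156.6 CPM in cow 8541, against 80.6 CPM in the next highest, a gap of 0.656 of the range of the group. EFNA1 in HT cows at D-3 was 75.4 CPM in cow 8513, against 30.7 CPM in the next highest, a gap of 0.770 of the range. Both libraries resembled another cow best, as described above.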

How the results depend on the processing

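None of RET, NGFR, EFNA1 and SPRY4 was a DEG for D14 vs. D7, D25 vs. D14, the interaction or HT vs. CL under any of the alternatives run, each cow left out included (0 to 0 genes in each). With the cow as a replicate block, which was not run for HT vs. CL, the counts were also 0. In these comparisons the lowest FDR of the 4 genes over all alternatives was 0.658, that of NGFR for HT vs. CL at D7. For pathway genes, library size only gave 16 up and 2 down at D3 vs. D-3 and 0 down at D7 vs. D3. Over all loci that setting gave 2217 up and 176 down, and then 24 down, against 887, 1330 and 338 in the main fit. The cow as a block gave 11 up and then 3 up, and the block without cows 8513 and 8660 gave 12 up, then 2 up and 10 down. Over all loci the block gave 1261 and then 308 up, against 887 and 92 in the main fit. Without the 2 cows it gave 1575 up, then 283 up and 621 down. With these 2 cows left out and no block, 0 pathway genes were up at D7, where 92 of all loci were. Leaving out 1 cow at a time gave 4 to 10 pathway genes up and 6 to 6 down at D3 vs. D-3. At D7 vs. D3 it gave 0 to 1 up and 1 to 8 down, and for HT vs. CL 0 to 0. Over all loci it gave 440 to 1110 up and 757 to 1512 down, and then 6 to 161 up and 43 to 471 down.

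Differences near 0 changed sign, and the cause was not tested. For D14 vs. D7, RET was 0.18 without cows 8513 and 8660 and 0.24 with the block in addition, NGFR was 0.0076 with library size only and 0.17 without cow 7965, and EFNA1 was 0.019 without cow 7965 and 0.0038 without cows 8513 and 8660. For D25 vs. D14, NGFR was -0.0089 without cow 7965, -0.0074 without cows 8513 and 8660 and -0.013 with the block in addition, and SPRY4 was 0.040 with library size only, 0.056 without cow 7965 and 0.043 with the block. For HT vs. CL, EFNA1 at D7 was -0.035 with library size only and SPRY4 at D14 was 0.0037 without cow 7965.

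Leaving out 1 cow at a time, the log2 fold changes that changed sign ranged, for D14 vs. D7, from -0.30 to 0.20 (RET), -0.11 to 0.17 (NGFR), -0.17 to 0.028 (EFNA1) and -0.066 to 0.11 (SPRY4), and for D25 vs. D14 from -0.061 to 0.14 (NGFR) and -0.062 to 0.056 (SPRY4). For HT vs. CL at D3 they ranged from -0.066 to 0.97 (RET), -0.32 to 0.23 (NGFR) and -0.0037 to 0.44 (EFNA1), at D7 from -0.024 to 0.28 (EFNA1) and -0.065 to 0.29 (SPRY4), at D14 from -0.25 to 0.017 (SPRY4), and at D25 from -0.088 to 0.23 (RET) and -0.14 to 0.057 (SPRY4). With 6 cows per treatment and the spread between cows, intervals of RET for HT vs. CL reach beyond 2-fold from D3 to D14. The replicate block changed the counts of pathway genes, as given above. For D14 vs. D7, D25 vs. D14 and the interaction, it took none of the 4 genes across the FDR limit. In the comparisons that chose the 4 genes no FDR was read for them, so a crossing there was not tested.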
